A study of Caenorhabditis elegans with 2 samples.

Results

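The 10 genes described here encode the cohesin complex and proteins that act on it in Caenorhabditis elegans. They are the kleisin genes rec-8, coh-3, coh-4, coh-1 and scc-1, the SMC subunit genes smc-3 and him-1, the stromalin gene scc-3, the release factor gene wapl-1 and the loader gene mau-2. The genes were listed by name, and all 10 of 10 were matched among the 19973 nuclear protein-coding genes of Ensembl release 115. REC-8 itself was the protein under study: ChIP-seq (sequencing of the DNA that co-precipitates with a protein) was done with an anti-GFP antibody on worms of strain YL581 that express REC-8 fused at its C terminus to GFP and FLAG. All worms were whole hermaphrodites taken as young adults, 50 hours after release from L1 starvation, so germ line and somatic chromatin were mixed, and a weak signal in all cells cannot be told apart from a strong one in few. There were 2 biological replicates of this single group, and no control sample is analysed here. The labels call the line stable and describe an insertion, without its genomic position, and one label field gives rec-8 as the antibody.

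Cohesin is a ring that holds sister chromatids together. A pair of SMC proteins, SMC-3 and HIM-1 (the worm SMC1), is closed by a kleisin, to which SCC-3 binds. REC-8, COH-3 and COH-4 are the meiotic kleisins of the worm germ line, SCC-1 is the kleisin of dividing cells, and COH-1 is a kleisin of somatic cells. MAU-2 loads the ring onto DNA together with SCC-2, and WAPL-1 releases it.

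The measurements are peak lists that the authors called for replicate 1 (17532 peaks), replicate 2 (14069 peaks) and both pooled (10019 peaks), each against a control. These lists are relaxed: they also hold peaks that the peak caller scored as weak, with q values, its false discovery estimates, reaching well above 0.05. Each list has its own lowest q value, which many peaks share. It is 0.0011 in replicate 1 (441 peaks), 0.0293 in replicate 2 (632 peaks) and 0.00875 in the pooled list (629 peaks). The q values are therefore not comparable between lists, and equal lowest values do not mean equal strength. The 739 strongest pooled peaks, with signals of 92.8 or more, form the authors' thresholded list. That list is labelled as thresholded by IDR (irreproducible discovery rate, a measure of agreement between replicates). The signal of 92.8 is only the lowest in it. The signal is the peak caller's value for a peak. It was not scaled between lists, so ranks within a list are given beside it, also as a percentage of list length in which a low value is a strong peak. A peak was assigned to a gene when it overlapped the gene plus 1000 bp on each side. Depth is unknown, and a peak missing from a list is not an absence of binding. Mitochondrial peaks numbered 0 in replicate 1 and 18 in replicate 2, a difference between the libraries whose part in the results below was not tested.

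Sequences under the strongest pooled peaks of 5 members are shown as examples. They include the peak past the threshold (smc-3) and the one closest below it (scc-1), and the others show further kinds of place. The choice does not follow signal: wapl-1, with a higher pooled signal than rec-8, is not shown. All are from the RefSeq WBcel235 assembly, on the strand of the named gene, and capitals mark matches to GAGAG, to CGCG or to GGTTCGA, the core of the B box of tRNA promoters, or to their reverse complements. The rec-8 stretch (chrIV:13349475-13349674, minus strand) is centred on the summit of its best pooled peak near the end of the gene, and the coh-3 stretch (chrV:14457222-14457421) runs up to the gene start. The scc-1 stretch (chrII:4701579-4701778) is centred on a summit past the gene end, and the scc-3 stretch (chrV:12764107-12764306) on a summit in coding sequence. The smc-3 stretch (chrIII:11290677-11290903) is the whole interval between the divergent genes mib-1 and smc-3.
rec-8: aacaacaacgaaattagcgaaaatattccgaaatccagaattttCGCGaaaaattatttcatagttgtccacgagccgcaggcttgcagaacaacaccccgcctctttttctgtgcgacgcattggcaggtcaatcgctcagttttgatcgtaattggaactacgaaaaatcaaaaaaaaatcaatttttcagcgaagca
coh-3: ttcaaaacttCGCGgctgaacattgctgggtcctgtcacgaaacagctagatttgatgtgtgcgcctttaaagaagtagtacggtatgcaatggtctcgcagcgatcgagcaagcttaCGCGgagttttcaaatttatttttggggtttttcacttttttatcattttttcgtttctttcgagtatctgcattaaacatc
scc-1: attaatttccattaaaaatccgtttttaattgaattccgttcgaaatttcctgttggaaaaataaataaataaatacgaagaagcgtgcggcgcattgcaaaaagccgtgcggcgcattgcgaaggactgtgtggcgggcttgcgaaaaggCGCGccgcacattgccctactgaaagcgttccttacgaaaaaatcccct
scc-3: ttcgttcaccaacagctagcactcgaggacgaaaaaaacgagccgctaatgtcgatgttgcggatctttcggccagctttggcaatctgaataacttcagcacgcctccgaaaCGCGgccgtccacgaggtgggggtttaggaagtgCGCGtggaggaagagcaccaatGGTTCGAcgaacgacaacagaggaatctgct
smc-3: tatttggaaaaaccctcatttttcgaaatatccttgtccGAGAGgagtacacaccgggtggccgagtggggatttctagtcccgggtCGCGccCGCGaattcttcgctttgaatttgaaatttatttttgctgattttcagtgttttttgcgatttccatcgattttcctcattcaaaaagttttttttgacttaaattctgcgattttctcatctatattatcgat

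CGCG occurred in each of these 5 stretches, once in rec-8 and scc-1 and 2 times in coh-3, scc-3 and smc-3. It occurred in 19.9% of all 200-base promoters, taken directly upstream of protein-coding genes, and in 30.4% of 200-base windows centred on nuclear pooled summits. For the 227 bases at smc-3 the shares were 22.3% of promoters and 32.8% of summit windows. GAGAG was present once in smc-3, against 32.5% of promoters of its length, and was not in the other stretches, against 29.6% of 200-base promoters. GGTTCGA was found once, in the coding stretch of scc-3, against 0.846% of 200-base promoters and 5.37% of 200-base summit windows. The stretches were chosen as examples, and matches are not given for the best peaks of the remaining members. These matches therefore only describe the stretches shown and are no measure of enrichment.

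Nearly all cohesin genes had a peak in the relaxed lists, and for all but smc-3 it lay below the authors' threshold. In the pooled list 9 of the 10 members had at least 1 peak, all except coh-1, against 43.4% of all protein-coding genes. In replicate 1 all 10 had one, against 60.7% of all genes, and in replicate 2 again 9, all except coh-1, against 52.9%. In 9 members a peak of replicate 1 and a peak of replicate 2 overlapped by at least 50% of the shorter peak, which held for 27.1% of all genes. This rule sets no lower limit on signal. The 10 windows held 20 pooled peaks, 0.258 per kb, against 0.133 per kb over all genes. For replicate 1 the density was 0.335 per kb against 0.220 per kb, and for replicate 2 it was 0.322 per kb against 0.180 per kb.

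The members were longer than most genes, and longer genes more often had a peak. The members had a median length of 4156 bp, against 2027 bp over all protein-coding genes. Of the 10 members, 7 lay in the longest of 4 equal length classes, where 61.5% had a pooled peak and 6 of these 7 members did. The other 3 lay in the next one down, where 44.2% of genes and 3 of the 3 members had one.

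Strong peaks were present at 1 to 4 members, depending on which of the following rules was used. Only smc-3 had a thresholded peak, 1 of 10 members, against 5.08% of all genes. Pooled peaks with a q value at or below 0.05, a limit chosen after the values were seen, were present at 4 members (rec-8, scc-1, smc-3 and wapl-1), against 7.51% of all genes. Best peaks among the 739 strongest of a replicate's own list were found for rec-8, scc-1 and smc-3 in replicate 1, against 5.25% of all genes, and for rec-8 and smc-3 in replicate 2, against 4.90%.

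The best pooled signals of 6 members lay close together below the threshold. They were 84.8 for scc-1, 83.1 for wapl-1, 80.8 for rec-8, 76.7 for him-1, 75.5 for coh-4 and 73.0 for coh-3. Their ranks ran from 904 to 1324 of 10019. Of all protein-coding genes, 6.20% had a pooled signal at least as high as scc-1 and 8.99% one at least as high as coh-3. The order within this run of 6 genes is not a ranking, because the replicates placed the same genes in another order. In replicate 1 it ran rec-8, scc-1, wapl-1, coh-3, him-1, coh-4, and in replicate 2 rec-8, coh-4, wapl-1, coh-3, him-1, scc-1.

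**Figure D1:**
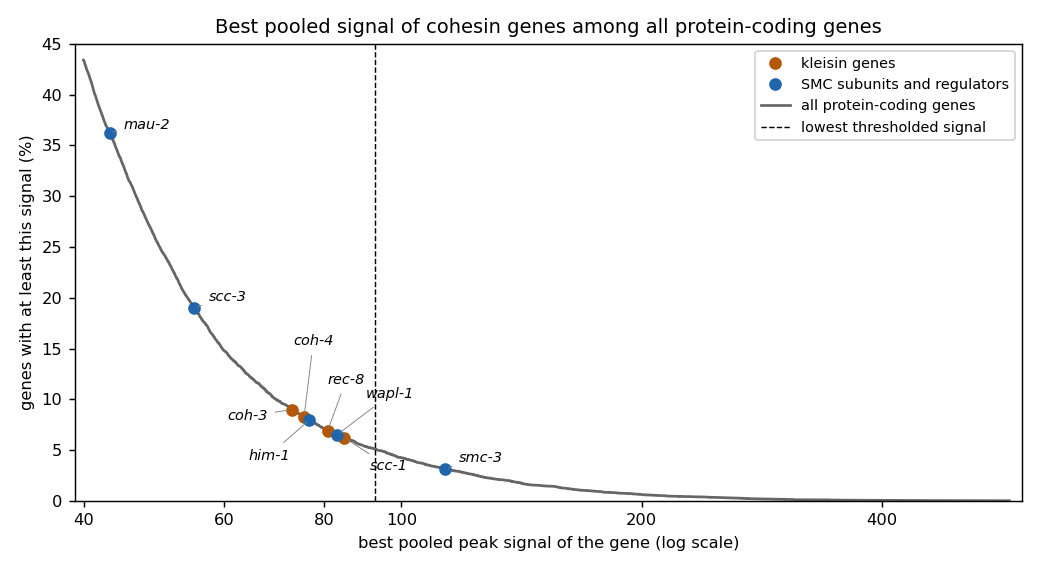
The curve gives, for each best pooled peak signal (x axis, log scale), the percentage of all 19973 protein-coding genes with at least that signal (y axis), and points mark the 9 cohesin genes with a pooled peak. Of these, smc-3 lies right of the dashed line at the lowest thresholded signal (92.8), 6 genes lie between 73.0 and 84.8, and scc-3 (55.0) and mau-2 (43.1) lie lower.

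Among the meiotic kleisins, rec-8, the gene of the tagged protein (IV, 13349122 to 13353193, minus strand), held the most pooled peaks of any member, 5 in a window of 6.07 kb. Of these, 3 lay around its 3′ end, with signals of 80.8 (in an intron, 453 bp before the gene end), 76.0 (80 bp past the end) and 67.6 (306 bp past it). Their q values were 0.0362, 0.0617 and 0.162. The last of the 3 had its summit in coding sequence of the small neighbouring gene W02A2.12. The 2 remaining pooled peaks, with signals of 57.1 and 50.2, lay 7 bp and 335 bp upstream of the gene start, on the side of mex-5, which encodes a zinc finger protein of the early embryo. These 2 peaks overlapped each other, as did the 2 past the gene end, so the 5 peaks are not 5 separate places.

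The replicates placed their strongest rec-8 peaks at the same end of the gene and not at the same position. Replicate 1 had its best peak (signal 71.8, rank 295, q 0.0011) 224 bp before the gene end, and replicate 2 (signal 59.9, rank 445, q 0.0293) 300 bp past it, and these peaks did not overlap by the rule used. In replicate 2 a further peak lay 97 bp past the gene end (signal 43.9, q 0.0461). The overlapping pair lay 452 bp before the end in replicate 1 (signal 46.8) and 461 bp before it in replicate 2 (signal 33.6). At the start of rec-8, replicate 2 had a peak 211 bp upstream (signal 38.1, q 0.136), while replicate 1 had none there and a weak one in coding sequence 530 bp inside (signal 20.8, q 0.935). The labels put the GFP and FLAG tag at the C terminus, which the 3′ part of the gene encodes. Whether tagged DNA contributes to these peaks was not tested. The 2 pooled peaks past the gene end also matched other genomic sequence, at 2 places for the first window (IV, 13348601 to 13349030) and 3 for the second (IV, 13348827 to 13349256), while the intronic one matched none.

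The pair coh-3 and coh-4 encodes closely related kleisins that can replace one another in meiosis. Their coding sequences were 89.1% identical over 1835 aligned bases, whereas no alignment was found between rec-8 and either of them. Their best pooled peaks lay at opposite ends of the genes. The coh-3 peak (V, 14457204 to 14457633, signal 73.0, q 0.088) had its summit 3 bp upstream of the gene start, within the region whose upstream sequence is shown above. In replicate 1 the best coh-3 peak was 64 bp upstream (signal 48.3, rank 840), and in replicate 2 the peak at the start was weak (signal 21.8, rank 10948) and the best one (signal 29.4) lay 856 bp upstream, in coding sequence of bmk-1. The best coh-4 peak (V, 4169511 to 4169940, signal 75.5, q 0.064) lay 186 bp past the gene end, with its summit in coding sequence of Y45G5AM.7, and both replicates had it (signals 43.0 and 36.4, ranks 1174 and 1707).

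Sequence shared by coh-3 and coh-4 was looked for under the pooled peaks only, and was found at the starts of these genes. The peak at the coh-3 start matched the start of coh-4 over 167 bases at 90% identity or more, and that was its only other match in the genome. At the coh-4 start the pooled peak was weak (signal 40.1, rank 9893), 333 bp inside the gene. The matching stretch (V, 4175468 to 4175633) overlaps one edge of this peak (V, 4175092 to 4175521), which had no match of its own by the same rule. How the authors treated reads that fit more than one place is not given in the sources used here. The coh-4 peak past the gene end had no other match.

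The other kleisin genes, coh-1 and scc-1, differed from each other. At coh-1 (X, 7465193 to 7475018), the only member on X, the pooled list and replicate 2 held 0 peaks in a window of 11.8 kb, the largest after that of smc-3. Replicate 1 held 1 peak of low rank (signal 24.7, rank 9157 of 17532, q 0.792), in an intron 1547 bp before the gene end, where the ncRNA gene K08A8.25 also lies. At scc-1 (II, 4698721 to 4700994), the pooled list held 1 peak (II, 4701464 to 4701893, signal 84.8, q 0.0249), the highest of the kleisins, 685 bp past the gene end and 390 bp before the start of unc-85, which encodes a histone chaperone. No pooled peak lay on scc-1 itself or at its start.

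The replicates differed at scc-1. Replicate 1 had a peak of signal 61.4 there (rank 456, 2.60% of the list, q 0.0033), while the 2 peaks of replicate 2 had signals of 25.4 and 25.2 (the better at 46.3% of the list, q 0.729 and 0.741). The sequence under the pooled peak is repeated: it had 21 other matches of at least 50 bases and 90% identity in the genome, the most of the 20 pooled peaks of the members. Of these 20 peaks, 4 had any such match, against 21.0% of all nuclear pooled peaks. The part of repeated sequence in the scc-1 signal was not tested.

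Of the SMC genes, smc-3 had the strongest peak of all members, in the interval shown above (III, 11290529 to 11290958), with a pooled signal of 113 (rank 466, q 0.00875). The summit lay 160 bp upstream of smc-3 and 68 bp from the start of mib-1, which is transcribed away from it, so the peak cannot be given to one of the 2 genes. Replicate 1 had it with a signal of 65.1 (rank 379, q 0.0011) and replicate 2 with 48.2 (rank 725, q 0.0338), and their summits were 181 bp and 165 bp upstream. A second smc-3 peak lay over the 3′ UTR, 160 bp before the gene end, with signals of 38.0 in replicate 1, 33.7 in replicate 2 and 57.8 in the pooled list (rank 2669, q 0.406). In this gene of 15344 bp no list held a summit between 41 bp from the start and 246 bp before the end.

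The other SMC gene, him-1, had its strongest peaks outside the gene. Its best pooled peak (signal 76.7, rank 1169, q 0.0578) lay 190 bp past the gene end in an intron of F28B3.6, 100 bp from the start of that gene. Both replicates had a peak there, with signals of 44.7 in replicate 1 (rank 1049) and 25.8 in replicate 2 (rank 6152). The best peak of replicate 2 (signal 27.0, rank 5220) lay elsewhere, 1159 bp upstream of the gene start. Inside him-1 the replicates had 2 and 1 weak peaks (signals 24.5 and 23.6 in replicate 1, 21.8 in replicate 2), and none of them overlapped between replicates.

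The remaining members, scc-3, wapl-1 and mau-2, had no thresholded peak. At scc-3 the pooled peak (signal 55.0, rank 3172, q 0.498) lay in coding sequence 262 bp from the start, and both replicates placed it at the same base, 247 bp from the start, with signals of 27.7 and 26.8. Within 100 bp of its pooled summit the GC content was 54.2%, the highest of the members' pooled peaks, whose median of 39.3% was equal to that of all nuclear pooled peaks. Replicate 2 had its best scc-3 peak (signal 33.4, rank 2336) 150 bp past the gene end. At wapl-1 the best pooled peak (signal 83.1, rank 956, q 0.034) lay in coding sequence of htz-1, the gene of the histone variant H2A.Z, 758 bp upstream of wapl-1. Its signals were 50.8 in replicate 1 (rank 752, just outside its 739 strongest) and 35.1 in replicate 2 (rank 1944). A weaker peak in the 3′ UTR of wapl-1 was present in each list, with signals of 25.01 in replicate 1, 31.7 in replicate 2 and 55.3 in the pooled list. At mau-2 the pooled peaks were in the weaker part of the list, with signals of 43.1 (rank 7698, q 0.896) 172 bp inside the start and 41.3 (rank 8948, q 0.935) 370 bp past the end. Replicate 1 had the peak near the start with a signal of 35.2 (rank 2339), and replicate 2 had none within 500 bp of the start.

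**Figure D2:**
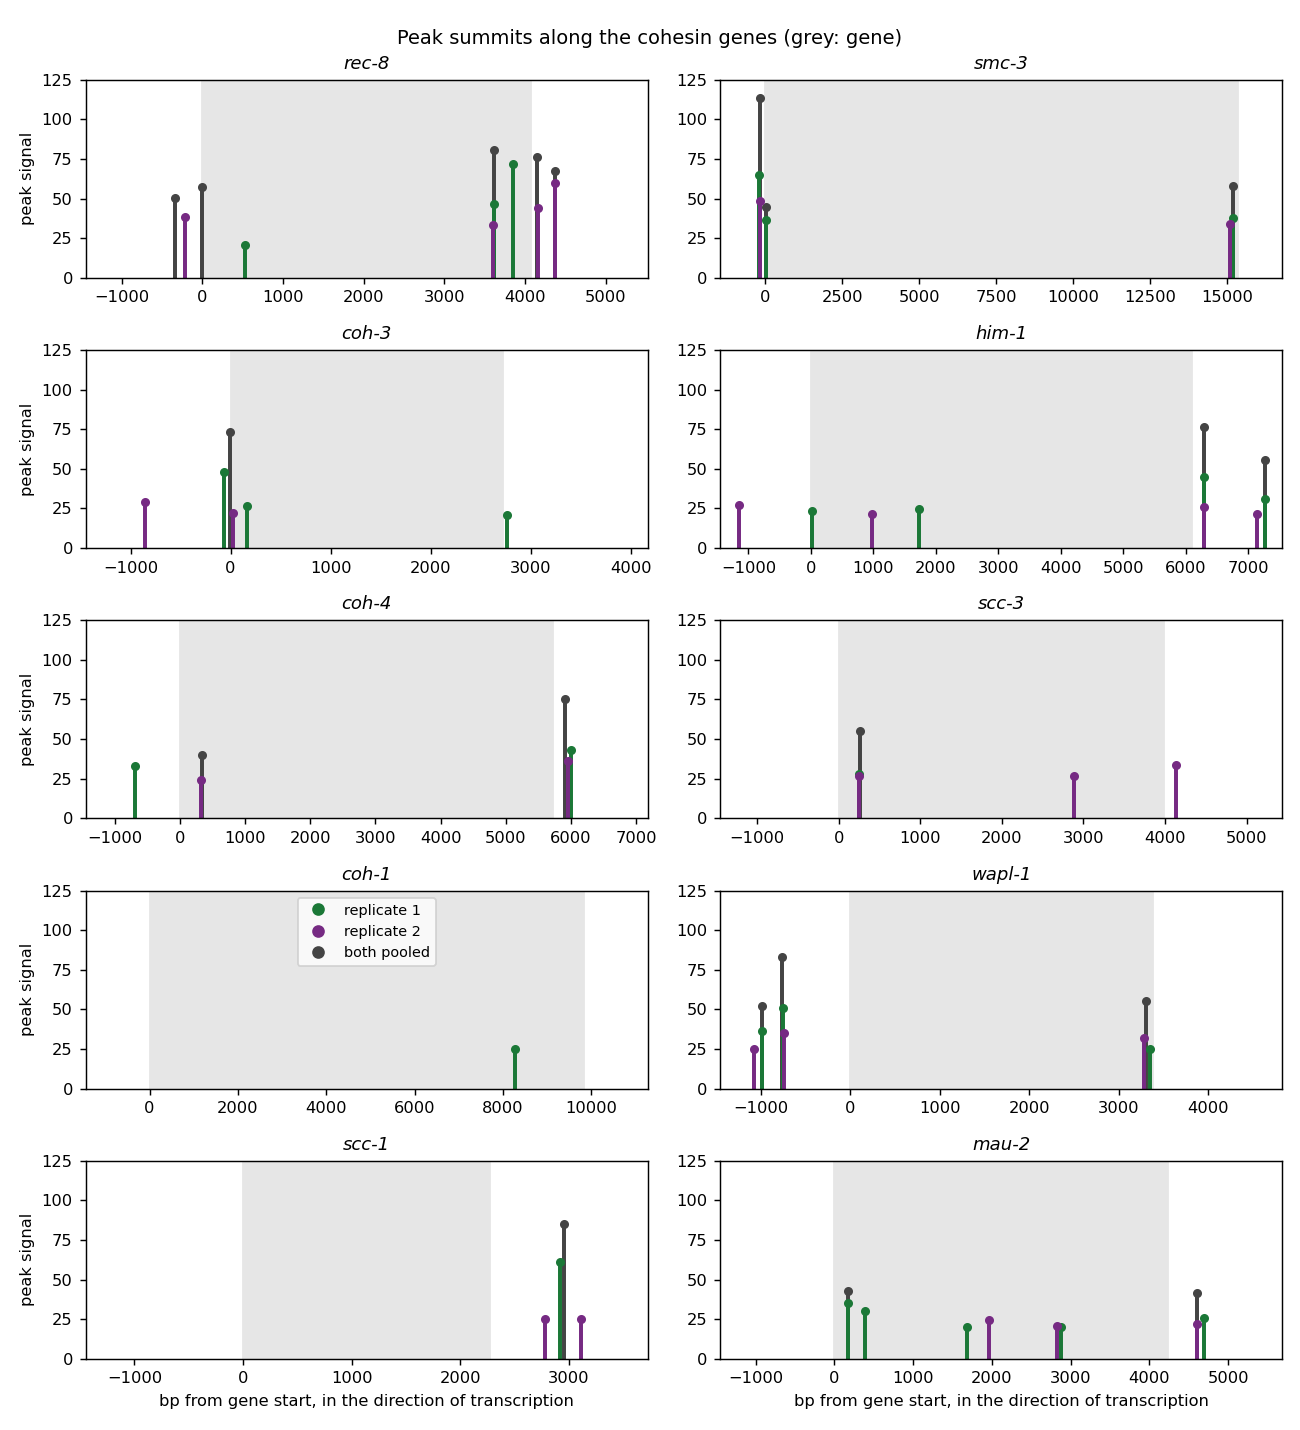
Each panel shows one gene (grey) with 1000 bp on each side, the x axis giving bp from the gene start in the direction of transcription and the y axis the peak signal, which is not scaled between lists. Stems mark the summits in replicate 1, in replicate 2 and in the pooled list. Pooled summits sit at the ends or outside of the genes: rec-8 has 3 around its 3′ end, smc-3 has its highest just upstream of the start, and coh-1 has none.

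Pooled summits lay at the edges of the cohesin genes and not in their middle. Of the 20 pooled peaks, 8 had the summit within 500 bp of the gene start and 8 within 500 bp of the gene end, 40% each, against 21.6% and 27.0% of 13900 gene and peak pairs over all protein-coding genes. In the rest of the gene there were 0 of 20, against 28.7%, and in the rest of the flanks 4, or 20%, against 22.7%. The single replicates did have peaks in the rest of the gene, 5 of 26 in replicate 1 (19.2%, against 33.6% of all pairs) and 4 of 25 in replicate 2 (16%, against 32.0%). These 9 peaks had signals between 20.1 and 26.8. At the gene start, replicate 1 had 30.8% of its member peaks, against 19.3% of all pairs. Replicate 2 had 20% there, close to the 20.4% of all pairs. At the gene end the shares were 30.8% in replicate 1, against 23.6%, and 36% in replicate 2, against 24.3%. Peaks of one gene are not independent, and no test was made.

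**Figure D3:**
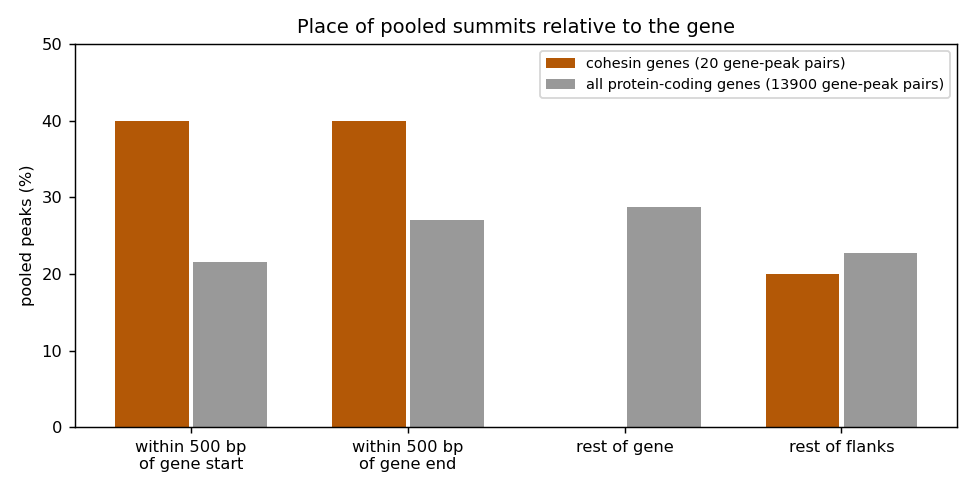
Bars give the percentage of pooled peaks (y axis) by the place of the summit relative to the gene (x axis), for the 20 peaks of the cohesin genes and for all 13900 gene and peak pairs. In the cohesin genes 40% lay at the start, 40% at the end and 0 in the rest of the gene, where 28.7% of all pairs lay.

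The best pooled peak lay nearer to a neighbour for some cohesin genes, in counts too small to set apart from the shares over all genes. Among the 9 best peaks, 3 had the summit inside the gene itself (rec-8, scc-3 and mau-2), against 41.9% over the 8671 protein-coding genes with a pooled peak. Another 3 (coh-4, him-1 and wapl-1) had it inside another protein-coding gene, against 24.8%, and coh-3, scc-1 and smc-3 had it between genes. The nearest protein-coding transcript start was the member's own for 4 of 9, against 58.8%. For rec-8 this was a later start, 260 bp from the summit. Of the 20 pooled member peaks, 0 had a tRNA, snoRNA, snRNA or rRNA gene within 250 bp, against 7.21% of all nuclear pooled peaks. With 20 peaks, 0 is not set apart from that share. The 3 lists together held 71 member peaks, many of them at the same places. Of these, 0 had such a gene within 250 bp, and the closest was 693 bp away. No share over all peaks is at hand for the replicate lists, so this count only describes the members.

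The order of kleisin genes and the other members by their best peak depended on the window and the replicate. In the pooled list with flanks of 1000 bp the median rank percentile was 12.1 for the kleisins and 11.7 for the SMC subunits and regulators, a difference of 0.42 percentage points, with a gene without a peak set to 100. With flanks of 500 bp the medians were 12.1 for the kleisins and 31.0 for the others (difference -18.9), and with no flank 13.2 and 31.0 (difference -17.8). At 500 bp wapl-1 had lost its peak in htz-1 and stood at 31.0, which was then the median of its group. In replicate 1, with flanks of 1000 bp, the medians were 4.79 and 5.98, and in replicate 2 they were 26.8 and 16.6, so the differences of -1.19 and 10.2 had opposite signs (SD 8.02 over the 2 replicates). Peak density in the pooled list was 0.260 per kb for the kleisins and 0.256 per kb for the others. This likeness rests on rec-8, which held 5 of the 9 kleisin peaks (0.823 per kb), some of them overlapping each other. The other kleisins had 0.259 (coh-4), 0.234 (scc-1), 0.212 (coh-3) and 0 (coh-1) per kb. It was lower for the kleisins in replicate 1, at 0.289 against 0.372 per kb, and in replicate 2, at 0.289 against 0.348 per kb. In each replicate rec-8 had the best rank of the 10 genes, at 1.68% of the list in replicate 1 and 3.16% in replicate 2, and smc-3 the next best, at 2.16% and 5.15%. For rec-8 these were different peaks that did not overlap by the rule used, and that of replicate 2 had its summit in coding sequence of W02A2.12. The rec-8 pair that did overlap ranked 921 in replicate 1 and 2280 in replicate 2. For smc-3 the best peaks of the replicates overlapped. In the pooled list smc-3 came before rec-8, at 4.65% and 10.1%. With 5 genes in each group, genes are not replicates, and no test was made of the difference.

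**Figure D4:**
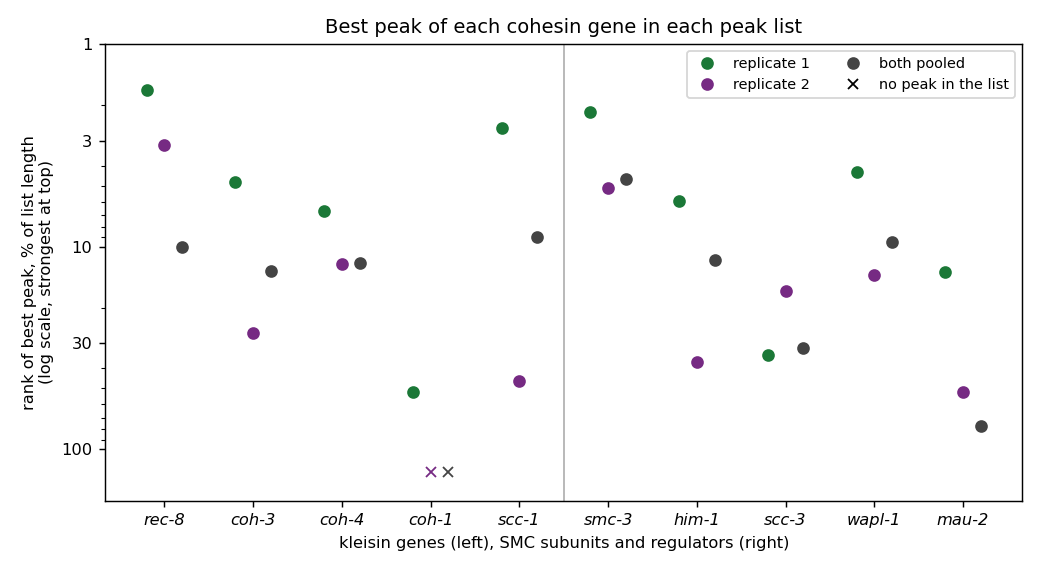
For each gene (x axis, kleisins left of the line, SMC subunits and regulators right of it) points give the rank of its best peak as a percentage of list length (y axis, log scale, strongest at the top) in replicate 1, replicate 2 and the pooled list. The groups overlap, rec-8 and smc-3 are highest in both replicates, and scc-1 is far apart between replicate 1 (2.60%) and replicate 2 (46.3%). The best rec-8 peaks of the replicates are different peaks that do not overlap by the rule used.

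Other genes that act on cohesin were examined in the same way, 11 in all: scc-2, evl-14, eco-1, ctf-18, tim-1, sep-1, ify-1, air-2, lab-1, sgo-1 and bub-1. Of these 9 had a pooled peak, the exceptions being air-2 and lab-1, against 43.4% of all protein-coding genes. Like the members, the 11 genes were longer than most, with a median of 3283 bp against 2027 bp. The exceptions were short, at 1687 bp (air-2) and 1012 bp (lab-1). A thresholded peak was present at 2, scc-2 and tim-1, against 5.08%. The strongest belonged to scc-2, the loader partner of MAU-2 (II, 240705 to 263663), with a pooled signal of 156 (rank 208, q 0.00875), 94.1 in replicate 1 (rank 123) and 61.0 in replicate 2 (rank 426). This peak (II, 255145 to 255574) lay in an intron, 164 bp from a later transcript start of the gene. That of tim-1, a relative of the replication fork protein Timeless, had a pooled signal of 95.7 (rank 689) and 58.3 in replicate 1, and its pooled summit lay 40 bp from a short RNA gene and between tim-1 and Y75B8A.23. The best tim-1 peak of replicate 2 (signal 45.8) had its summit 450 bp upstream of tim-1, near that of a second, weaker pooled peak 469 bp upstream (signal 54.5), and not at the 261 bp of the stronger one.

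The other 2 named by strength were among the 739 strongest peaks of 1 replicate's list only. For bub-1, a spindle checkpoint kinase gene, the signal was 54.3 in replicate 1 (rank 634) and 28.9 in replicate 2 (rank 4045), in coding sequence 462 bp and 434 bp before the gene end. For ctf-18, which encodes a subunit of a clamp loader, the signal in coding sequence near the start was 27.3 in replicate 1 (rank 6308) and 52.6 in replicate 2 (rank 588). Of the loader genes, scc-2 stood at 2.08% of list length in the pooled list, 0.702% in replicate 1 and 3.03% in replicate 2, and mau-2 at 76.8%, 13.3% and 52.4% in the same lists.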

How the data were processed

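ChIP-seq of REC-8-GFP in 2 biological replicates was used as deposited peak lists on build ce11, which is WBcel235. Per the file listings deposited with the samples, peaks were called on each replicate alone and on both pooled, with a control. The sources used here name no aligner, peak caller or version. The signal of each peak, and its q value as −log10, are the authors' values, deposited in the lists. No read counts were used, so depth and counting error are unknown. The lists on build ce10 were not used.

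From these lists, peaks overlapping each protein-coding gene plus 1000 bp on each side were found with Python 3.11.15 and pandas 2.3.3, with Ensembl release 115 gene models. Ranks follow the signal within a list. Replicate peaks were shared when they overlapped by at least 50% of the shorter one. A summit took the place coding exon, UTR or intron, in that order. Printed stretches of 200 or 227 bases (first planned as longer windows) came from the RefSeq WBcel235 genome. Repeats and kleisin coding sequences were compared with blastn 2.17.0. The overlap code was tested on simulated data. Members and lists were chosen with earlier results of these data known. All members were named, and of the other genes those with a thresholded peak or one of the 739 strongest of any list, plus the 2 with the highest pooled signal. There is 1 group and no control sample, so no test between conditions was made. Alternatives were other windows, summits in place of overlaps, other rules for shared peaks, the stronger part of the thresholded list, each replicate alone and the kleisins without rec-8. The q limit and the summit inside the gene were added after the data were seen.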

Additional observations from a re-analysis of the deposited data

How the results depend on the processing

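The count of members with a pooled peak was 9 and stayed between 6 and 10 under other windows, with summits in place of overlaps and in each replicate's list. It was 6 with the summit inside the gene and 4 with q at or below 0.05, both chosen after the data were seen. The count with overlapping replicate peaks was 9 and ran from 7 to 9 under other windows and overlap rules. The count with a thresholded peak was 1, and 0 in the stronger part of the list, its top 369 peaks, where smc-3 ranks 466, or with the summit inside the gene, since the smc-3 summit lies upstream. In single replicates it was 2 without replicate 1 and 3 without replicate 2.

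The difference in median rank percentile between kleisins and the other members (0.42) changed sign with the window. With 500 bp only the median of the others moved, where wapl-1 lost its peak in htz-1. The difference was -17.8 with no flank, -18.9 with 500 bp and 68.3 with the summit inside the gene. Leaving out a replicate gave a range from -1.19 (without replicate 2) to 10.2 (without replicate 1). Without rec-8 it was 0.98. No paired analysis was possible because there is 1 group. Unknown depth limits each statement on a missing or weak peak.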

Other observations

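Genes whose best peaks ranked most like those of rec-8 and smc-3 over the 3 lists were looked up among the 6811 protein-coding genes with a peak in each list. For rec-8 these were Y17G7B.21 (pooled rank 997, replicate 1 rank 348, replicate 2 rank 622), lpin-1 and its neighbour H37A05.4, which share their best peaks (ranks 896, 298 and 636). Their distances from rec-8 in log10 rank were 0.162 for Y17G7B.21 and 0.163 for the other two. For smc-3 they were plpr-1 (ranks 450, 375 and 804), K08H2.10 (453, 362 and 657) and ife-3 (470, 349 and 669, an eIF4E translation factor gene), at distances of 0.048 to 0.050. The pooled list was called on both replicates together and so is not independent of their own lists, and this likeness is a description.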
